A study of Mus musculus with 12 samples.

Results

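The 9 genes described here encode 2 protease-activated receptors (F2r and F2rl1), the initiator of coagulation F3 and its inhibitor Tfpi, the protein C receptor Procr and its partner Thbd, the plasminogen activators Plau and Plat, and the protease inhibitor Serpine2. They were taken by symbol from a table of 54100 genes, where each symbol matched 1 row, and all 9 were among the 8161 genes with enough counts to be tested. The genes were chosen by values measured in these same libraries, though the contrast that decided is not recorded. The changes with overload are counted as used in that choice and are given with their standard errors (SE) and no p-value. Whether such a change passed a threshold, or still did in other fits of these libraries, describes the same values and is no independent evidence. The differences between genotypes were also known by then, so their adjusted p-values describe the genes and are not independent evidence.

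RNA was measured in 4 groups of 3 libraries: cdKO overload, control overload, cdKO sham and control sham. The cells were fibro-adipogenic progenitors, mesenchymal cells of the space between muscle fibres, sorted as Pdgfra+ from the plantaris, with 1000 cells per tube. Mice labelled cdKO carried the Pdgfra-CreERT2 driver with Yap1 flox/flox and Taz flox/flox alleles, and mice labelled control carried the Pdgfra-CreERT2 driver; Yap1 and Taz (symbol Wwtr1) are transcriptional co-activators of the Hippo pathway. All groups thus shared the CreERT2 driver, which acts where Pdgfra is expressed and needs an inducer. Age, inducer and the time from surgery to sampling are not stated, nor whether each library came from a separate animal, so the spread between libraries may be technical. Levels are in CPM, the count of a gene relative to the library size as scaled by edgeR.

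Protease-activated receptors are G protein-coupled receptors that a protease switches on by cutting the outer end of the receptor, which then serves as its own ligand. Thrombin is the classic activator of the receptor encoded by F2r, and trypsin-like proteases and the complex of tissue factor with factor VII activate the one encoded by F2rl1. Tissue factor also starts clotting, whereas thrombomodulin and the endothelial protein C receptor turn thrombin towards the anticoagulant protein C, and plasminogen activators produce the plasmin that dissolves fibrin. In mouse muscle, urokinase and plasmin are known for clearing fibrin during repair.

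Libraries held 336437 to 1564581 counts, and 0.161% to 0.313% of them fell on the 9 genes. Wwtr1 stood at 18.2 to 22.5 CPM in cdKO overload and 125 to 174 CPM in control overload, and at 27.1 to 40.6 CPM in cdKO sham and 108 to 126 CPM in control sham, so its genotypes did not overlap under either load. Yap1 averaged 32.0 ± 9.15 CPM in cdKO overload against 59.5 ± 27.9 CPM in control overload, and 64.5 ± 7.71 CPM in cdKO sham against 97.9 ± 8.93 CPM in control sham (SD, n = 3 each), and passed under neither load (edgeR adjusted p = 0.586 and 0.999). Pdgfra, the sorting marker, was counted in every library, at 259 to 391, 308 to 443, 565 to 899.6 and 479 to 608 CPM in the same order of groups. On the first principal component, cdKO overload replicate 2 (7.39) and control overload replicate 1 (15.8) lay nearest to the sham libraries, against 32.6 to 61.1 for the other overloaded ones. Counts from chromosome Y summed to 72.7 and 88.7 CPM in control overload replicates 2 and 3 and to 131 to 337 CPM in the other libraries. Those 2 control overload libraries thus stand apart, and a fit with this share as a covariate is given where it ends a call. Since both are in control overload, the covariate partly overlaps with that group, and the 2 cannot be fully told apart. Control overload replicate 2 also had the most counts (1564581) but the fewest genes with a count, 16744 against 19700 to 23918 in the other libraries.

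RefSeq promoter windows (build GRCm38.p6, 250 bases before to 50 after the start) were at hand for 5 of the 9 genes: F2r, F3, Tfpi, Procr and Serpine2. The windows of F2r, F3 and Procr are shown because each holds TGANTCA, the AP-1 motif, which reads the same pattern on both strands. Capitals mark it, and each window runs 5′ to 3′ on the strand of its gene: chr13:95618417-95618716, minus strand, for F2r, chr3:121723287-121723586, plus strand, for F3, and chr2:155750967-155751266, plus strand, for Procr.
F2r: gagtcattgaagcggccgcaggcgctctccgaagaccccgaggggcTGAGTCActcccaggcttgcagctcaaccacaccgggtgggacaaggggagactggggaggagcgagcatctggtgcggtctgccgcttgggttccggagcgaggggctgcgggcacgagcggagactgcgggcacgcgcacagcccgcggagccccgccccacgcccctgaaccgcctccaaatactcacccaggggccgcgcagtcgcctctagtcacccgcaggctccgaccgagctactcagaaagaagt
F3: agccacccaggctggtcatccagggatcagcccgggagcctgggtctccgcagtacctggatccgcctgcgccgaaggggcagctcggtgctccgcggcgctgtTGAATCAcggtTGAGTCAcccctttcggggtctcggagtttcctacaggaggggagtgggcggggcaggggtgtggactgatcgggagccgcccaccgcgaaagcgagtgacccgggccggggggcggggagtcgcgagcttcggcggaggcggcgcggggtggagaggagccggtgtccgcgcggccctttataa
Procr: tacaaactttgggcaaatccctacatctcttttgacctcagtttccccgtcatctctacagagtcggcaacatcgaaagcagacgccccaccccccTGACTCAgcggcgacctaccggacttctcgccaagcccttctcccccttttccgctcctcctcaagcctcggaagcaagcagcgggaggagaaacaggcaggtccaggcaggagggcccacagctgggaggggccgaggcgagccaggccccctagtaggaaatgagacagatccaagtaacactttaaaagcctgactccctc
F3 held 2 matches, starting 146 and 135 bases before the start, F2r held 1 match 204 bases before it and Procr 1 match 154 bases before it. The motif was present in 7.81% of the 32851 RefSeq windows of this length. The TEAD motif GGAATG or its reverse complement CATTCC, which was present in 14.7% of windows, matched in 0 of the windows of these 5 genes. These are matches of letters and say nothing about binding.

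**Figure D1:**
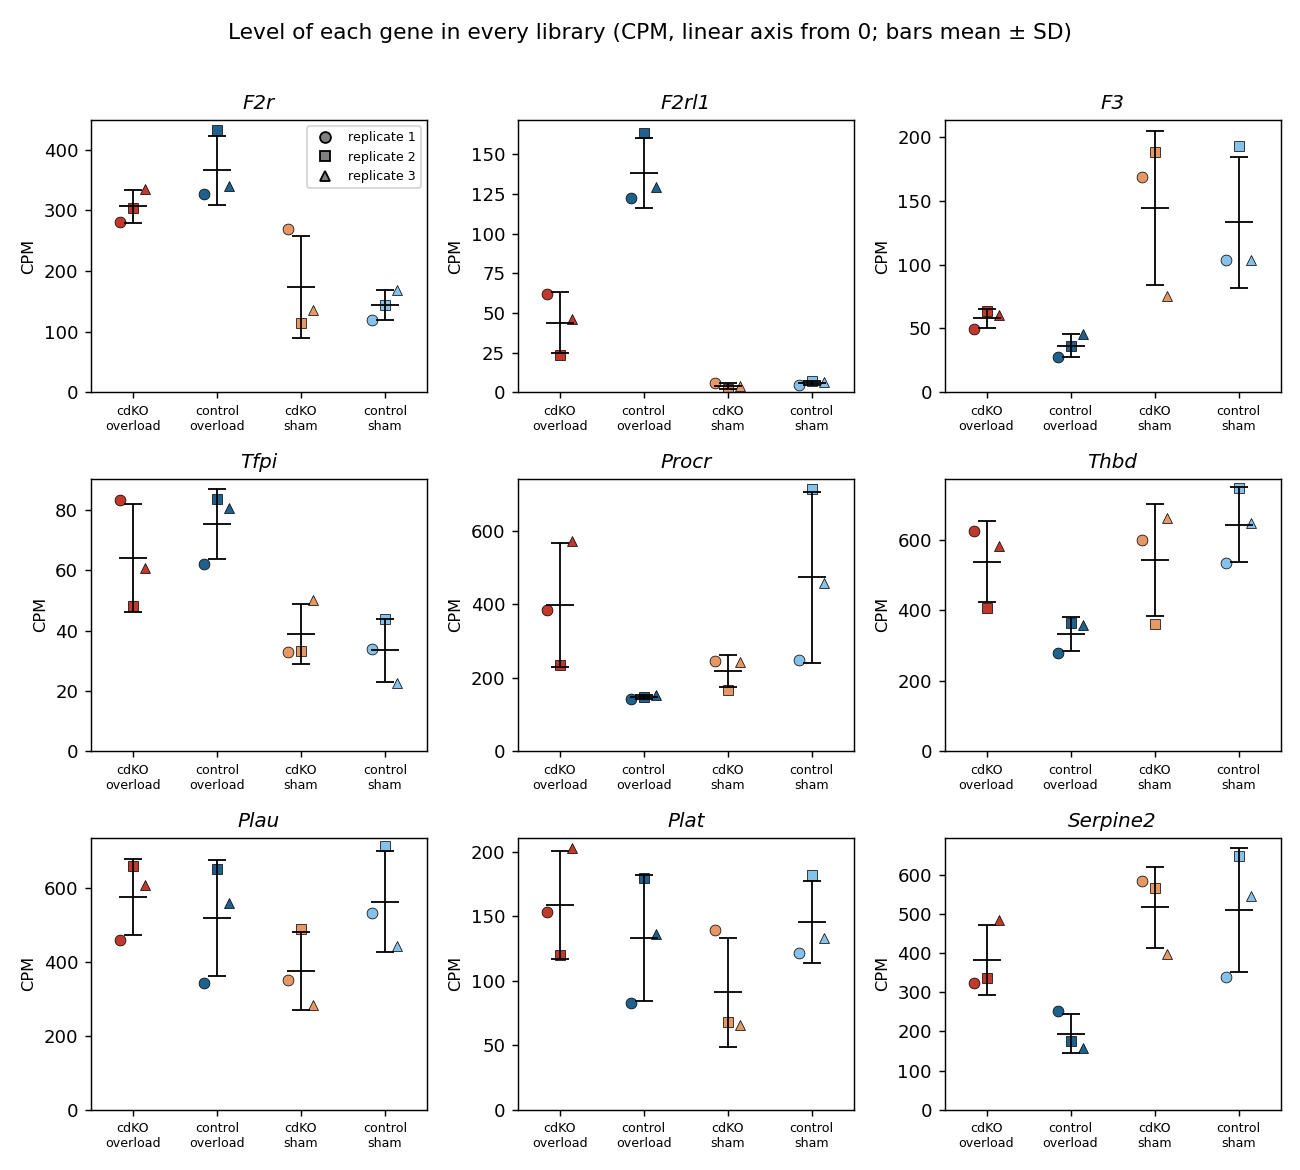
Level of each of the 9 genes in every library, in CPM on linear axes that start at 0, with marker shape for the replicate and bars for the mean ± SD of 3 libraries per group. F2rl1 sits between 122 and 164 CPM in control overload and below 7 CPM in all 6 sham libraries, and Procr lies between 141 and 153 CPM in control overload, below every other group.

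Overload changed these genes in both directions. In cdKO progenitors 2 of the 9 passed the threshold (adjusted p under 0.05 over 8161 genes) as higher, beside 6.37% of all genes, and 1 as lower, beside 6.68%. In control progenitors 7 of the 9 passed, 3 higher and 4 lower, beside 21.7% of all genes in either direction. The libraries of the 2 loads did not overlap for the same number of the 9: in cdKO 2 lay higher (15.4% of all genes) and 1 lower (14.7%, 30.0% in either direction), and in controls 3 lay higher (18.0%) and 4 lower (18.9%, 36.9% in either direction). F2r, F2rl1 and Tfpi rose in controls, and F3, Procr, Thbd and Serpine2 fell. In cdKO, F2r and F2rl1 rose and F3 fell. The median log2 change of the 9 was 0.73 in cdKO and -0.12 in controls, against -0.02 and -0.05 over all genes tested. Since overload was counted as used in the choice, nothing is read from these shares. In sorted cells of bulk libraries, fewer expressing cells and less RNA per cell cannot be told apart.

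F2rl1 (ENSMUSG00000021678, chromosome 13, 95511732 to 95525227, minus strand, GRCm38), the receptor known as PAR2, was near the limit of counting in sham muscle and plainly counted in overloaded muscle. It had 61.8, 23.4 and 46.0 CPM in the cdKO overload libraries, against 5.50, 2.08 and 3.87 CPM in cdKO sham. In controls it had 122, 164 and 130 CPM under overload, against 4.50, 6.84 and 6.48 CPM in sham. Every overloaded library lay above every sham library, and the 2 genotypes did not overlap under overload. The sham values rest on 2 to 5 counts per library, and 3 counts correspond to 1.95 to 9.72 CPM. The log2 rise was 3.57 ± 0.48 (SE) in cdKO and 4.49 ± 0.42 in controls. On summed counts the ratio of overload to sham was 12.4 in cdKO (99 counts against 7, exact 95% counting interval 5.80 to 31.7) and 24.0 in controls (434 against 9, 12.5 to 52.9). These intervals cover counting error and leave out the spread between libraries.

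The genotypes differed in F2rl1 under overload. The gene averaged 43.7 ± 19.3 CPM in cdKO overload and 138 ± 22.0 CPM in control overload (SD, n = 3 each), a log2 difference of -1.68 ± 0.29 (edgeR quasi-likelihood test, Benjamini-Hochberg adjusted p = 0.0221, lower in 3 of 3 libraries). Of all 8161 genes, 3 passed in this contrast (0.0368%), and F2rl1 was the only one of the 9. Its p ranked 2nd of all genes, after that of Wwtr1. In sham muscle the log2 difference was -0.76 ± 0.70 (adjusted p = 0.999) on 7 and 9 counts, and a difference was not detectable at this depth. The interaction, which asks whether overload changed the gene differently in cdKO, was -0.92 ± 0.82 (adjusted p = 0.963). The call under overload was lost with the Y-linked share as a covariate (-1.94), in a fit to the 2 groups alone (-1.68), and without cdKO overload replicate 2 (-1.38) or 3 (-1.73) or control overload replicate 2 (-1.53) or 3 (-1.78); adjusted p ranged from 9.45e-04 to 0.247 over 21 alternatives, all with the same sign.

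F2r (ENSMUSG00000048376, chromosome 13, 95601803 to 95618487, minus strand), the thrombin receptor PAR1, rose with overload in both genotypes. It had 281, 303 and 336 CPM in cdKO overload, against 269, 115 and 135 CPM in cdKO sham. It had 327, 432 and 340 CPM in control overload, against 119, 144 and 168 CPM in control sham. The overloaded libraries lay above the sham libraries in both genotypes, with cdKO sham replicate 1 close to the lowest overloaded library. The log2 change was 0.84 ± 0.27 in cdKO and 1.36 ± 0.28 in controls. The control call was kept in all 21 alternatives, which refit these same libraries and so describe the fit only. The cdKO call was lost in 11 of the 21. It was lost with the Y-linked share as a covariate (0.82), in a fit to the compared groups alone (0.82) and with no filter on low counts (0.92). It was also lost without cdKO overload replicate 1 (0.90) or 3 (0.77), cdKO sham replicate 2 (0.58) or 3 (0.69), control overload replicate 3 (0.83), or control sham replicate 1 (0.83) or 3 (0.82). Between genotypes the difference was -0.26 ± 0.26 under overload (adjusted p = 0.917) and 0.26 ± 0.29 in sham (adjusted p = 0.999), with overlapping libraries.

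F2rl1 and F2r are neighbours, 76575 bases apart on the same strand. F2rl2, the gene of PAR3, lies beyond F2r on the opposite strand inside the span of Iqgap2 and had 0 or 1 count in every library. F2rl3, the gene of PAR4, had 0 counts in all 12 libraries. Within libraries the log2 ratio of F2rl1 to F2r counts averaged -2.89 ± 0.74 in cdKO overload against -1.40 ± 0.01 in control overload, and -5.23 ± 0.36 in cdKO sham against -4.36 ± 0.08 in control sham (SD, n = 3). This ratio compares how each gene's counts moved and is no ratio of their RNA levels. The ratio ran from -1.41 to -1.39 in control overload (71 to 252 F2rl1 counts per library) and from -3.66 to -2.17 in cdKO overload (18 to 41). In sham muscle it rested on 2 to 5 F2rl1 counts per library. Counting error was not computed for these ratios, so nothing is read from their spread within a group.

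F3 (ENSMUSG00000028128, chromosome 3, 121723537 to 121735048, plus strand), which encodes tissue factor and is also counted among reported YAP and TAZ targets, fell with overload in both genotypes. It had 49.4, 63.7 and 60.6 CPM in cdKO overload, against 169, 188 and 75.4 CPM in cdKO sham. In controls it had 27.6, 36.3 and 45.5 CPM under overload, against 104, 193 and 104 CPM in sham. Overloaded and sham libraries did not overlap in either genotype. The log2 change was -1.32 ± 0.31 in cdKO and -1.88 ± 0.33 in controls. Both calls were kept in all 21 alternatives, which refit these same libraries and so describe the fit only. Under overload the cdKO libraries all lay above the control libraries, but the difference of 0.65 ± 0.33 did not pass (adjusted p = 0.753), and in sham it was 0.09 ± 0.30 (adjusted p = 0.999).

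Tfpi (ENSMUSG00000027082, chromosome 2, 84432855 to 84476775, minus strand), whose product blocks the tissue factor complex, moved the other way. It had 83.4, 48.1 and 60.6 CPM in cdKO overload, against 33.0, 33.3 and 50.3 CPM in cdKO sham. It had 62.0, 83.7 and 80.6 CPM in control overload, against 33.8, 43.7 and 22.7 CPM in control sham. The control groups did not overlap, whereas cdKO overload replicate 2 lay below the highest cdKO sham library. Tfpi rose by 1.12 ± 0.31 on the log2 scale in controls and differed by 0.73 ± 0.30 in cdKO, which did not pass. The control call was lost with counts thinned to the smallest library (0.92) and without control sham replicate 3 (0.998), where Tfpi had 7 counts. Between genotypes Tfpi differed by -0.26 ± 0.28 under overload (adjusted p = 0.920).

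The log2 ratio of F3 to Tfpi counts within a library shows both genes together. It averaged -0.12 ± 0.58 in cdKO overload, against 1.79 ± 1.06 in cdKO sham, and -1.05 ± 0.21 in control overload, against 1.94 ± 0.31 in control sham (SD, n = 3). Overloaded libraries lay below sham libraries in both genotypes. The ratio follows from the changes of the 2 genes given above, so this is no separate observation. Under overload the cdKO libraries (-0.75 to 0.40) lay above the control libraries (-1.20 to -0.82). That gap was small, with cdKO replicate 1 (-0.75) close to control replicate 3 (-0.82), and counting error was not computed for it.

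**Figure D2:**
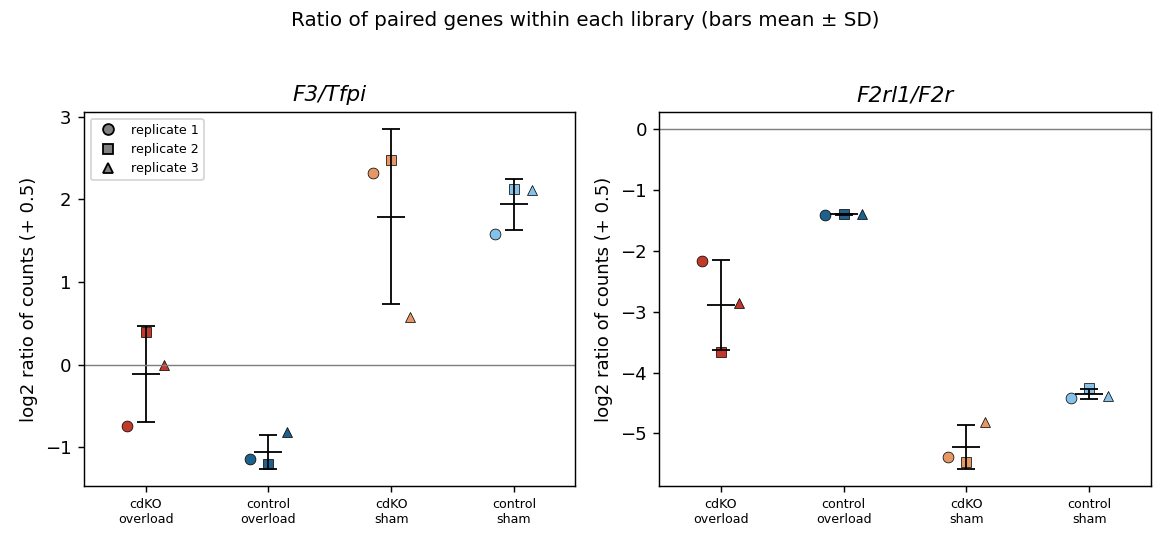
Log2 ratio of the counts of 2 genes in each library (with 0.5 added to each count), with marker shape for the replicate and bars for the mean ± SD of 3 libraries per group. The F3 to Tfpi ratio is above 0.5 in all 6 sham libraries and at most 0.40 in the overloaded ones. The F2rl1 to F2r ratio runs from -1.41 to -1.39 in control overload and from -3.66 to -2.17 in cdKO overload. The bars do not show counting error.

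Procr (ENSMUSG00000027611, chromosome 2, 155751117 to 155755471, plus strand), which encodes the endothelial protein C receptor, was the gene in which the 4 groups crossed. It had 385, 234 and 573 CPM in cdKO overload, against 244, 167 and 244 CPM in cdKO sham. It had 141, 147 and 153 CPM in control overload, against 248, 712 and 457 CPM in control sham. Under overload all cdKO libraries lay above all control libraries, and in sham all lay below them. That opposite order without overlap was found in 0.551% of all genes. In sham it rested on a small gap, with cdKO replicates 1 and 3 (244 CPM each) close to control replicate 1 (248 CPM). In order of means, control sham (472 ± 233 CPM) and cdKO overload (397 ± 170 CPM) came before cdKO sham (218 ± 44.5 CPM) and control overload (147 ± 5.83 CPM), and the first 2 did not differ beyond their spread.

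Overload lowered Procr in controls by a log2 change of -1.69 ± 0.34, while in cdKO the change was 0.87 ± 0.33 and did not pass. Against control, cdKO differed by 1.43 ± 0.33 under overload (edgeR adjusted p = 0.294) and by -1.13 ± 0.33 in sham (adjusted p = 0.999). Under overload the adjusted p ran from 0.00896 (edgeR with no filter) to 0.963 over 21 alternatives, of which 3 made the call. The interaction was 2.56 ± 0.47, the smallest p of all 8161 genes, and missed the threshold (edgeR adjusted p = 0.167). Over 20 alternatives its adjusted p ranged from 2.64e-05 (edgeR with no filter, over 37990 genes) to 0.936, with the same sign in all. A call was made in 5: DESeq2 (adjusted p = 0.00167), no filter on low counts, and fits without cdKO overload replicate 2, without control sham replicate 1, or without cdKO overload replicate 2 and control overload replicate 1 together. With the Y-linked share as a covariate the interaction was lowest, at 1.79, and the fall in controls (-1.14) did not pass.

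Thbd (ENSMUSG00000074743, chromosome 2, 148404466 to 148408188, minus strand), the gene of thrombomodulin, fell with overload in controls. It had 626, 407 and 582 CPM in cdKO overload, against 601, 361 and 663 CPM in cdKO sham. It had 277, 363 and 358 CPM in control overload, against 534, 748 and 648 CPM in control sham. The cdKO groups overlapped and the control groups did not. The log2 change was -0.01 ± 0.26 in cdKO and -0.95 ± 0.27 in controls. The control call was lost with no filter on low counts (-0.79), with the Y-linked covariate (-0.62), and without control sham replicate 2 (-0.77) or 3 (-0.90). Under overload every cdKO library lay above every control library (0.69 ± 0.26, adjusted p = 0.607), and the interaction was 0.94 ± 0.37 (adjusted p = 0.895).

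Thbd, Procr, Tfpi and Plat are also genes of endothelium, so markers of that cell type were read beside them. The summed level of 9 endothelial markers ran from 49.4 to 79.3 CPM in cdKO overload, 20.8 to 159 CPM in control overload, 108 to 290 CPM in cdKO sham and 138 to 261 CPM in control sham. Of the 6 markers that could be tested, 0 rose and 2 fell with overload in cdKO, and 0 rose and 1 fell in controls. Cldn5 was at 0 in cdKO overload. The endothelial sum was thus lower in all cdKO overload libraries than in cdKO sham, while the control groups overlapped, and its part in these results was not tested. The sum of the 9 pericyte and smooth muscle markers was lower under overload without overlap in both genotypes, at 360.0 to 369 CPM in cdKO overload against 412 to 603 CPM in cdKO sham and 187 to 289 CPM in control overload against 437 to 560.5 CPM in control sham, and so moved with the falls of F3, and in controls of Procr, Thbd and Serpine2. Of its 6 tested markers 0 rose and 1 fell in cdKO, and 0 rose and 2 fell in controls, and its part was not tested. Other lists moved with overload too. Of 10 mesenchymal progenitor markers 2 rose and 4 fell in cdKO, and 2 rose and 6 fell in controls. The 1 Schwann marker tested fell in both genotypes. The part of these lists was not tested either. For platelets and megakaryocytes the 6 markers summed to 18.5 to 26.0, 11.7 to 31.0, 16.7 to 23.8 and 15.8 to 22.7 CPM in the same order of groups, and 9 leukocyte markers to 8.98 to 59.8, 9.74 to 58.6, 27.1 to 47.7 and 43.7 to 60.8 CPM.

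Serpine2 (ENSMUSG00000026249, chromosome 1, 79794197 to 79861180, minus strand) encodes protease nexin-1, an inhibitor of thrombin and of plasminogen activators. It had 324, 337 and 485 CPM in cdKO overload, against 585, 565 and 398 CPM in cdKO sham. It had 252, 175 and 156 CPM in control overload, against 338, 648 and 544 CPM in control sham. The control groups were apart, and the cdKO groups overlapped. Serpine2 fell in controls by -1.40 ± 0.28 on the log2 scale, a call kept in all 21 refits of these same libraries. In cdKO it differed by -0.43 ± 0.27, which did not pass. Under overload all cdKO libraries lay above all control libraries (0.99 ± 0.28, adjusted p = 0.360), whereas in sham the difference was 0.02 ± 0.27 (adjusted p = 0.999).

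The plasminogen activators passed in neither overload contrast, though both did in cdKO under some alternatives. Plau (ENSMUSG00000021822, chromosome 14, 20836660 to 20843385, plus strand), which encodes urokinase, had 460, 659 and 608 CPM in cdKO overload, against 352, 490 and 284 CPM in cdKO sham, a log2 difference of 0.61 ± 0.28. It had 345, 651 and 560 CPM in control overload, against 534, 715 and 444 CPM in control sham, a difference of -0.12 ± 0.28. Plat (ENSMUSG00000031538, chromosome 8, 22757727 to 22782844, plus strand), the gene of tissue plasminogen activator, had 153, 120 and 203 CPM in cdKO overload, against 139, 67.7 and 65.7 CPM in cdKO sham (0.82 ± 0.31). It had 82.7, 180 and 137 CPM in control overload, against 122, 182 and 133 CPM in control sham (-0.12 ± 0.31). Libraries of the 2 loads overlapped for both genes in both genotypes. Without cdKO overload replicate 2, Plat passed in cdKO (1.03), as did Procr (1.19) and Tfpi (0.94), so that 6 of the 9 genes were then called in that contrast, beside 1284 of the 8536 genes tested in that fit. Plat was also called without control overload replicate 1 (0.82) or cdKO sham replicate 1 (1.24), and Plau in cdKO with the Y-linked covariate (0.87).

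**Figure D3:**
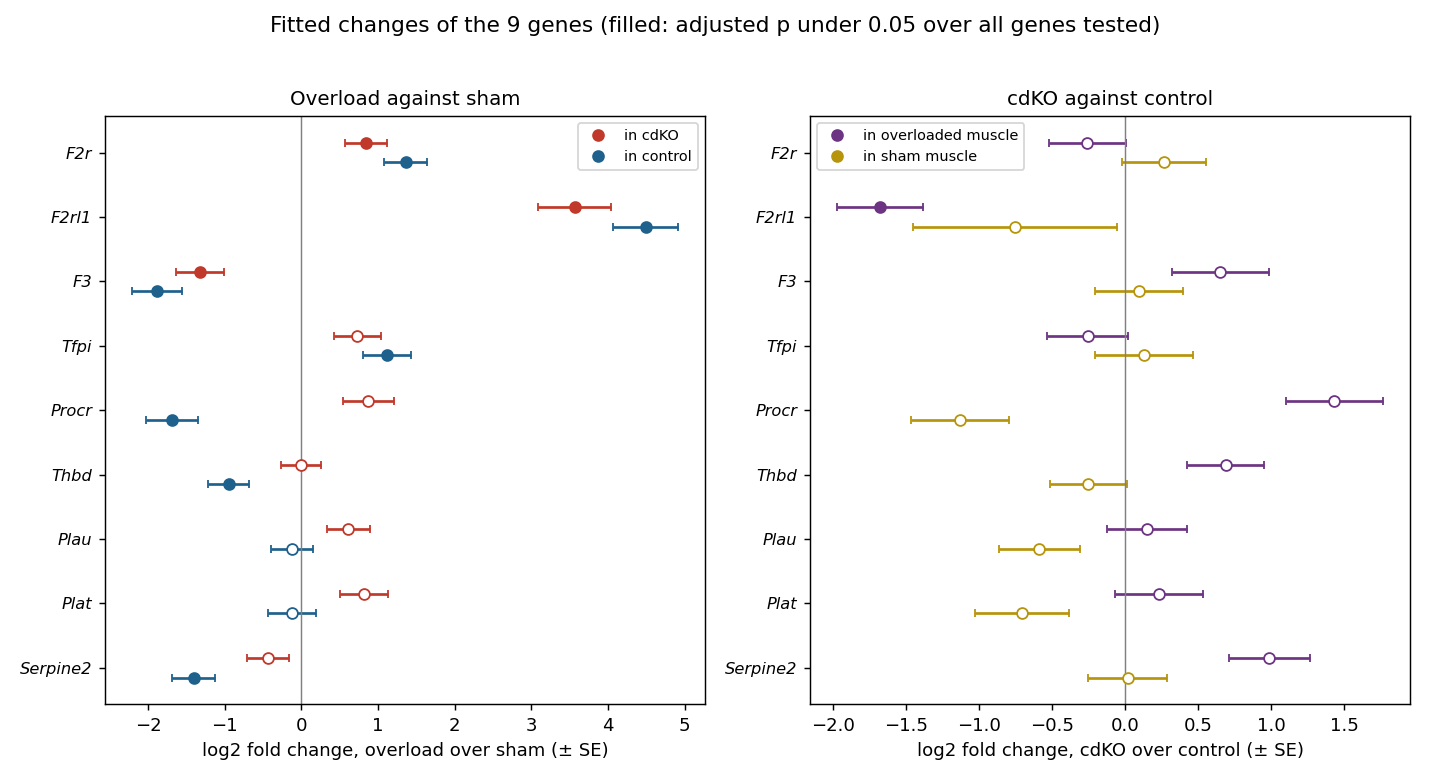
Fitted log2 fold change ± SE of the 9 genes, for overload over sham in each genotype (left) and for cdKO over control under each load (right), with filled points for an adjusted p under 0.05 over all genes tested. F2rl1 is the one filled point on the right (-1.68), and Procr lies on opposite sides of 0 in cdKO and control on the left and in overloaded and sham muscle on the right.

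Between genotypes, 5 of the 9 genes had no overlap under overload, beside 10.7% of all genes: F2rl1 was lower in cdKO (5.31% of all genes had no overlap in that direction, and 0.0245% passed as lower), and Procr, Thbd, F3 and Serpine2 lay higher (5.38%). Of these 5, F2rl1 alone passed the test. The 4 that lay higher in cdKO overload are the 4 that fell with overload in controls; both contrasts use the control overload libraries, so they are not separate observations. Summed marker levels moved with genotype under overload too: 9 pericyte and smooth muscle markers had 360.0 to 369 CPM in cdKO overload, above the 187 to 289 CPM of control overload, and 10 markers of mesenchymal progenitors had 67634 to 71032 CPM, above 47122 to 67215 CPM. The pericyte sum rested mostly on Steap4, at 255 to 260.0 CPM in cdKO overload and 106 to 155 CPM in control overload. The mesenchymal sum rested mostly on Col3a1, at 41018 to 49330 CPM in cdKO overload and 30573 to 46393 CPM in control overload, which overlapped. Of the 6 pericyte markers tested, 1 lay higher without overlap and 5 overlapped, with a median log2 difference of 0.04, and of the 10 mesenchymal ones 2 lay higher and 8 overlapped, with a median of 0.41. By edgeR 0 of the markers in either list passed (1 in each at an unadjusted p under 0.05). The part of these sums in the differences was not tested. Side by side, the log2 values for cdKO over control under overload and for overload over sham in controls were 1.43 and -1.69 for Procr, 0.69 and -0.95 for Thbd, 0.65 and -1.88 for F3, and 0.99 and -1.40 for Serpine2. In sham muscle 0 of 9 passed (edgeR, 3 at an unadjusted p under 0.05, 0 by DESeq2 and by limma), beside 0.0123% of all genes, and Procr alone had no overlap, as lower in cdKO, beside 9.89% of all genes in either direction (5.44% higher and 4.45% lower). Averaged over both loads 0 of 9 passed (2 at an unadjusted p under 0.05, 0 by DESeq2 and by limma, 0.0123% of all genes). For the interaction 0 of 9 passed (4 at an unadjusted p under 0.05, 1 by DESeq2, 0 by limma), and edgeR called 0 of all 8161 genes. The share of all genes at an unadjusted p under 0.05 was not computed, so nothing is read from those counts. By edgeR, Plat had an unadjusted p of 0.0432 for the interaction and ranked 377 of 8161 genes. Plau had an unadjusted edgeR p of 0.0453 in sham and ranked 291.

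The wider pathway was read from 5 lists of 78 further genes, of which 77 had a row and 37 had enough counts to be tested. With overload, 4 of the 37 rose and 2 fell in cdKO, where 6.37% of all genes rose and 6.68% fell, and 3 rose and 4 fell in controls, where 21.7% of all genes passed in either direction. The control share is near that of all genes, and the counts by list that follow are small and are read against the same shares. The lists were drawn up with earlier results of these data known. The adjusted p-values of their genes are thus a description and no independent evidence. The 37 genes had median log2 changes of -0.03 in cdKO and -0.09 in controls, close to those of all genes (-0.02 and -0.05). Between genotypes 0 of 37 passed under either load (edgeR, 1 at an unadjusted p under 0.05 in overloaded and 1 in sham muscle). The share of all genes at that unadjusted cut was not computed. Most genes of the circulating factors were not testable: F2, the gene of prothrombin, had 0 to 4 counts per library, Plg, of plasminogen, 0 to 7, Proc, of protein C, 0 or 1, and F13a1, of a factor XIII chain, 0 to 5.

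Among coagulation factors and cofactors, 2 of 5 tested genes rose in each genotype and 0 fell. They were Lman1 and Mcfd2, whose products form the cargo receptor that carries factors V and VIII out of the endoplasmic reticulum. Lman1 averaged 390 ± 133 CPM in cdKO overload, against 151 ± 8.53 CPM in cdKO sham (log2 change 1.37 ± 0.28, edgeR adjusted p = 0.00207), and 463 ± 152 CPM in control overload, against 155 ± 3.42 CPM in control sham (1.59 ± 0.28, adjusted p = 2.77e-04). Mcfd2 rose by 1.02 ± 0.28 in cdKO (edgeR adjusted p = 0.0173) and by 1.33 ± 0.29 in controls (adjusted p = 0.00162). For both, overloaded and sham libraries did not overlap in either genotype.

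Among anticoagulants and protease inhibitors, 0 of 7 tested genes rose and 1 fell in each genotype. Gas6, a vitamin K-dependent ligand of TAM receptors, fell by -1.62 ± 0.30 in cdKO (edgeR adjusted p = 9.62e-04) and by -1.21 ± 0.31 in controls (adjusted p = 0.00747). Pros1, the gene of protein S, was at 218 ± 18.4 CPM in cdKO overload, 192 ± 26.3 CPM in control overload, 184 ± 59.4 CPM in cdKO sham and 190 ± 42.9 CPM in control sham and did not pass. Tfpi2, a homologue of Tfpi, was at 184 ± 44.6, 104 ± 35.0, 198 ± 73.1 and 175 ± 29.2 CPM in the same order and did not pass in any contrast; its cdKO overload libraries all lay above the control ones (0.80 ± 0.29, edgeR adjusted p = 0.582).

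In the fibrinolysis list 1 of 5 tested genes rose in each genotype and 0 fell, and in the list of receptor partners 1 of 6 rose in each and 0 fell. In both lists it was Anxa2, which encodes annexin A2, a cell surface site for plasminogen and tissue plasminogen activator (0.98 ± 0.27 in cdKO, edgeR adjusted p = 0.0184, and 1.09 ± 0.27 in controls, adjusted p = 0.00527). Plaur, the urokinase receptor gene, averaged 40.7 ± 13.8 CPM in cdKO overload, 59.0 ± 5.57 CPM in control overload, 28.4 ± 11.1 CPM in cdKO sham and 38.9 ± 17.4 CPM in control sham and did not pass.

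In the list of genes that act downstream of the receptors, 1 of 19 tested genes rose and 1 fell in cdKO, and 0 rose and 3 fell in controls. Gna13 (-0.67 ± 0.24, edgeR adjusted p = 0.0452), a G protein subunit that couples to these receptors, Arhgef12 (-0.68 ± 0.24, adjusted p = 0.0458), an exchange factor for small GTPases that it activates, and Plcb4 (-0.79 ± 0.28, adjusted p = 0.0443), a phospholipase C, fell in controls. In cdKO Itpr1, a calcium channel of the endoplasmic reticulum, fell (-1.03 ± 0.34, edgeR adjusted p = 0.0450), and Ap2m1, a clathrin adaptor subunit, rose (1.06 ± 0.33, adjusted p = 0.0318). Each is near the threshold, and for none was the difference between genotypes called.

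**Figure D4:**
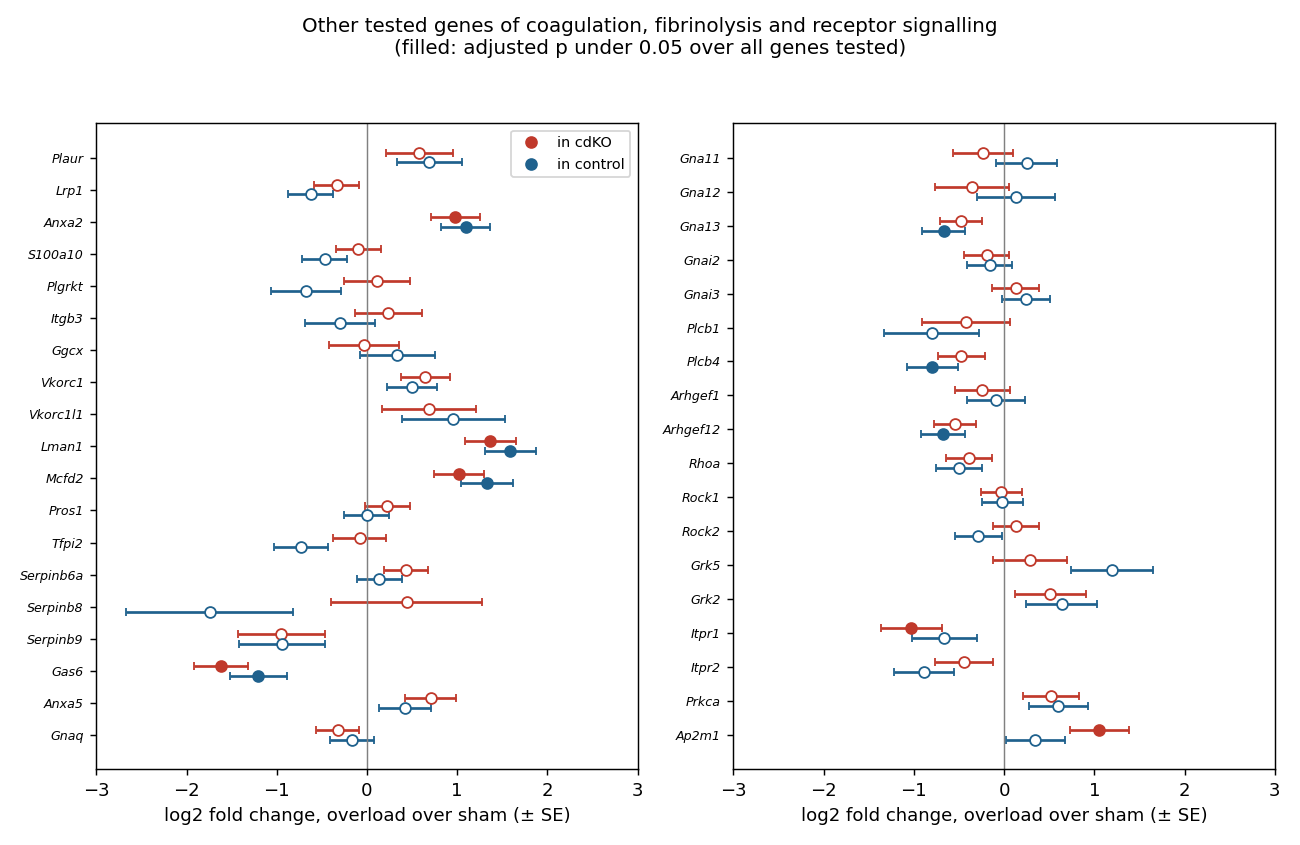
Fitted log2 fold change ± SE, overload over sham, of the 37 testable genes of the 5 further lists in cdKO and in control progenitors, with filled points for an adjusted p under 0.05 over all genes tested. Anxa2, Lman1 and Mcfd2 are filled above 0 and Gas6 below 0 in both genotypes.

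Genes whose levels ran most like each of the 9 were taken by Pearson's r of log2 CPM over the 12 libraries, which share load, depth and scaling, so r is a description. F2rl1 ran closest to the chemokine genes Cxcl5 (r = 0.975) and Ccl2 (r = 0.974). F3 ran closest to the eotaxin gene Ccl11 (r = 0.967) and to Mfge8 (r = 0.959), which encodes a secreted bridging protein. Tfpi ran with P4ha1, which encodes a collagen prolyl hydroxylase subunit (r = 0.960), and for F2r they were Pdlim7 (r = 0.945) and Ass1 (r = 0.942). For Serpine2 they were Atp6ap2 (r = 0.945) and Qpct (r = 0.941), for Thbd Sat1 (r = 0.934) and Gtf2ird2 (r = 0.906), and for Procr Bmt2 (r = 0.880) and Ifi202b (r = 0.856). Plau ran with the ribosomal protein genes Rps14 (r = 0.930) and Rpl13 (r = 0.904), whose reads can be shared with pseudogenes, and Plat with Tmem11 (r = 0.918) and Mrps14 (r = 0.888).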

How the data were processed

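RNA of sorted Pdgfra+ cells was counted per gene. The authors deposited raw counts, as shown by whole values and unequal totals. The submitters' processing notes name featureCounts 2.0.1, HISAT2 2.2.1, Trim Galore 0.6.6, DESeq2 1.26.0 and the build GRCm38. They do not state the annotation release, the strand setting or any use of molecular identifiers. For library construction the labels cite a published protocol, known as a low-input method that tags 3′ ends. No other annotated gene overlaps any of the 9. Coordinates came from the GRCm38 annotation, where 54100 of 54100 identifiers matched.

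Counts were filtered with filterByExpr, scaled by TMM and tested with edgeR 4.0.16 in R 4.3.3, in 1 robust quasi-likelihood fit to all 12 libraries with a mean per group. The 8161 genes shared a Benjamini-Hochberg adjustment, and a gene passed at 0.05, two-sided. SE was taken as the size of the log2 change over the root of its F statistic. There were 6 contrasts: overload in each genotype, genotype under each load and averaged over loads, and the interaction. CPM is on TMM-scaled sizes, and log2 CPM for r has a prior count of 2. Counting intervals (exact, 95%) and the floor of 3 counts cover counting error only. Replicates were kept apart in the fits, since every pair within a group differed beyond counting noise (chi-square 3.22 to 19.2 per degree of freedom). For the counting intervals the counts of a group were summed. The scripts were tested on simulated data for the 4 contrasts of 2 groups. They found 12.5% to 20.2% of 2-fold changes and 72.2% to 82.5% of 4-fold changes, and 1.20% to 8.70% of calls were false. The simulated fits made 83 to 108 calls each. The data gave 1768 for overload in controls, 1065 in cdKO, and 3 and 1 between genotypes under overload and in sham. Such rates depend on the share of genes that change, so they do not give the sensitivity of the contrasts reported here. A gene that did not pass may still differ 2-fold.

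The 9 genes, the further lists and the naming rule were chosen with earlier results of these data known. Named were the 9, fixed pathway genes, from each list up to 6 genes called in an overload contrast and up to 6 in a genotype contrast by smallest p, Yap1, Wwtr1 and Pdgfra, and the 2 protein-coding genes most like each of the 9. A gene of the lists, left out of their counts, and a gene most like one of the 9 are not reported here. Alternatives were DESeq2 1.42.0, limma 3.58.1 voom with quality weights, DESeq2 size factors, no filter, counts thinned to the smallest library, the compared groups alone, a replicate block, the Y-linked share as a covariate, and each library left out; leaving out control overload replicate 1 with cdKO overload replicate 2 was chosen after seeing the data.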

Additional observations from a re-analysis of the deposited data

Results flagged for a closer look

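Procr differed between the loads in the direction of its genotype difference. Under overload all 3 cdKO libraries (234 to 573 CPM) lay above all 3 control libraries (141 to 153 CPM), and in sham all 3 cdKO libraries (167 to 244 CPM) lay below all 3 control libraries (248 to 712 CPM). The interaction of genotype and load was 2.56 on the log2 scale, with an edgeR adjusted p = 0.167 (from 2.64e-05 to 0.936 over the alternatives). The lowest value came from edgeR with no filter, over 37990 genes, and the next lowest was 0.00167, by DESeq2. The same opposite order was found in 45 of 8161 genes. In sham muscle the order of Procr rested on a small gap, from the highest cdKO library (244 CPM) to the lowest control library (248 CPM).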

How the results depend on the processing

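Of 1115 values of the 9 genes under the alternatives, 1025 kept their sign and their side of the threshold, 24 lost a call, 18 gained one and 48 turned sign, none of these 48 called in either fit. Of 7 genes called for overload in controls, 5 to 7 were called across single libraries left out. For overload in cdKO the count of 3 became 2 to 6 on leaving out 1 library and 6 without control overload replicate 1 and cdKO overload replicate 2. For cdKO against control under overload the count of 1 became 0 in a fit to the compared groups alone and with the Y-linked covariate, 2 with no filter and without both overloaded libraries nearest to sham, and 0 to 1 on leaving out 1 library. Without cdKO overload replicate 2 the 1 gene called was Procr, as higher in cdKO (1.70), and F2rl1 was not called. For the interaction the count of 0 became 1 with DESeq2, with no filter and without both overloaded libraries nearest to sham, and 0 to 1 on leaving out 1 library. The cause was not tested. Libraries of the same replicate number had deviations correlated at -0.23 to 0.27 (above 0.1 in 6 of 18 pairs). With 3 libraries per group this does not decide whether the numbers pair them. With the replicate block the counts in these 4 contrasts were 7, 2, 1 and 0, with F2r no longer called in cdKO (0.86). Over all genes tested, cdKO against control under overload called 3 genes, and 17 with no filter, 1 with the compared groups alone or the Y-linked covariate, 21 without both libraries, and 34 without control overload replicate 1. The interaction called 0, and 1 with DESeq2, 10 with no filter and 4 without both libraries. In sham cdKO against control called 1 gene, and 0 to 2 under the alternatives; averaged over loads it called 1, and 1 to 4. Overload in controls called 1768, and 1031 with the Y-linked covariate and 1060 without control overload replicate 2. Overload in cdKO called 1065, and 702 with no filter, 473 or 423 without cdKO overload replicate 1 or 3, and 551 without cdKO sham replicate 2. Depth limits F2rl1 in sham muscle and most genes of circulating factors.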

Other observations

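Serpinb2, the gene of the plasminogen activator inhibitor PAI-2, had too few counts to be tested and is named after its values were seen. It had 5 to 16 counts per library in cdKO overload, 9 to 21 in control overload, 0 to 2 in cdKO sham and 0 in each control sham library. Serpinc1, the gene of antithrombin, had 9 to 16 counts in cdKO overload, 1 to 8 in control overload, 1 to 13 in cdKO sham and 5 to 8 in control sham, and was not tested either.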
